A study of Mus musculus with 4 samples.

Results

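The genes described here are 9 genes of epithelial defence that resident microbes are known to regulate, other than the Reg3 lectins: Nos2, Duox2, Duoxa2, Fut2, Pigr, Lcn2, Cxcl1, Il18 and Retnlb. They were taken by gene symbol. All 9 were listed in the table of mice without tetracycline and 8 in the table of mice given it, where Cxcl1 was not listed, out of 27425 genes listed in the 2 tables together. The sequenced RNA came from crypts of the small intestine, the pits of the gut lining that hold its stem cells and Paneth cells. The mice were C57BL/6J males, 9 weeks of age. The 4 groups were fed without tetracycline, fasted without tetracycline, fed with tetracycline and fasted with tetracycline. Fasting lasted 24 hours and tetracycline, an antibiotic, was given for 21 days. The study asked how depletion of what the labels call AKK by tetracycline changes gene expression in fed and fasted mice.

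The epithelium defends itself in several ways that depend on microbes. NADPH oxidases of the Duox family and the inducible nitric oxide synthase make oxidants. Fucosyltransferases decorate surface glycans with fucose that bacteria feed on, and the polymeric immunoglobulin receptor carries IgA into the lumen. Epithelial cells also release the cytokine interleukin-18, the neutrophil-attracting chemokine Cxcl1, the iron-withholding protein lipocalin-2 and the goblet-cell antimicrobial Retnlb. Several of these genes are known to be low in germ-free or antibiotic-treated mice and to respond to interleukin-22 or NF-kB signals.

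Each group has 1 labelled sample, but the whole counts behind the deposited means showed 2 libraries on each side of each table. Libraries of a side are numbered by size factor, library 1 having the larger. Neither the labels nor the tables say whether these are separate animals, so p-values measure the spread between these libraries, which may be technical. The deposited means summed to 65863261 normalized counts without and 65327199 with tetracycline per average library, and the largest size factor was 1.17 and 1.75 times the smallest. No column states the direction of the deposited changes; the word order of the table names was read to mean fasted relative to fed, and every direction rests on it. Values are counts divided by size factors (normalized counts) unless another scale is named, and a gene was called where the authors' adjusted p was under 0.05. All 8 epithelial markers were listed, with summed means of 527285 to 656828 per group. The crypts also held other cells: the 10 lymphocyte markers summed to 3056 to 55086 per library and the 8 stromal markers to 842 to 4360. In bulk RNA, fewer cells of a type and less RNA per cell cannot be told apart.

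Duox2 and Duoxa2 are shown by sequence because they lie head to head on chromosome 2, were nearest neighbours in level from the side of Duox2, and were high in the same library. Duox2 (ENSMUSG00000068452.9), an oxidase that makes hydrogen peroxide, lies on the minus strand at chr2:122279246-122298740. Duoxa2 (ENSMUSG00000027225.8), the maturation factor that Duox2 needs to leave the endoplasmic reticulum, lies on the plus strand at chr2:122298900-122302885. The RefSeq gene records, on build GRCm38.p6, stand 160 bases apart. The RefSeq promoter windows run from 250 bases before to 50 bases after a start site, and capitals mark a TATA box (TATAAA). The Duox2 window belongs to a start site inside the gene record, 673 bases from that of Duoxa2, at chr2:122298178-122298477, and the Duoxa2 window is chr2:122298650-122298949.
Duox2 promoter: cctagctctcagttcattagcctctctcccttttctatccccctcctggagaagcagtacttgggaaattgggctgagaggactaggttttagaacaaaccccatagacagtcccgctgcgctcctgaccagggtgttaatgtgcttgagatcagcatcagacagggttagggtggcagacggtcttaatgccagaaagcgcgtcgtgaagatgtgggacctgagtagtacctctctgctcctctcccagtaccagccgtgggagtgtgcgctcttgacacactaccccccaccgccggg
Duoxa2 promoter: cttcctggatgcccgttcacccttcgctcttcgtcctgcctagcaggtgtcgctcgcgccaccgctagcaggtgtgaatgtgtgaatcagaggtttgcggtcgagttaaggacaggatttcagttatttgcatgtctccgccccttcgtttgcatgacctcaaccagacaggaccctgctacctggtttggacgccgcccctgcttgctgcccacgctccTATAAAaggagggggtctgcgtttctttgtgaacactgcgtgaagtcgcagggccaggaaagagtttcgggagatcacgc
Promoter windows were found for 6 of the 9 genes. Of 3 motifs searched on both strands, namely TTCNNNGAA (STAT), CACGTG (E-box) and TATAAA, the Duox2 window held none and the Duoxa2 window held TATAAA, which 13.6% of all 32851 windows hold. The match begins at position -30 from the Duoxa2 start site. The Pigr window held CACGTG, found in 7.15% of windows, and TTCNNNGAA, found in 8.30%. The Il18 window held TATAAA on the reverse strand at position -175, and the Lcn2 and Cxcl1 windows held none of the 3. These matches describe the letters and show no binding, and no match says only that these letters are not in the window.

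Without tetracycline, the comparison was of fasted with fed crypts. Of the 8 members with an adjusted p, 1 was called, Nos2, which was higher in fasted crypts, where 1.06% of all 18100 tested genes were called higher and 2.27% called in either direction. At an unadjusted p under 0.05 there were 2 of the 8, Nos2 and Retnlb, against 10.8% of all tested genes, and at an adjusted p under 0.01 there were 0, against 1.36%. The median change of these 8 was 0.78 on the log2 scale, against 0.0067 over all tested genes. Both fasted libraries stood above both fed libraries for 4 of the 7 members that had an adjusted p and recovered counts, Nos2, Fut2, Lcn2 and Retnlb, as they did for 22.8% of all genes of that kind. The opposite order, both fasted below both fed, held for 0 of these 7 and for 23.2% of all such genes.

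Nos2 (ENSMUSG00000020826.10, chr11:78920787-78960226), the inducible nitric oxide synthase, had 236 and 392 normalized counts in the fed libraries and 9071 and 1415 in the fasted libraries without tetracycline. Both fasted libraries were above both fed ones, and fasted library 1 held 86.5% of the fasted signal. The change in the authors' deposited table was 4.06 on the log2 scale (SE 1.19, DESeq2 Wald test, adjusted p 0.0336), or 16.7-fold between the group means. Fasted library 2 alone was 4.51-fold above the fed mean and fasted library 1 was 28.9-fold above it. Without fasted library 1 the log2 change was 2.17 (SE 1.46), and Nos2 was not called (adjusted p 0.945, Wald test with the dispersion held at the value implied by the deposited SE). Without any one of the other libraries the change was not called: it was 4.85 without fasted library 2, 3.74 without fed library 1 and 4.47 without fed library 2, with adjusted p of 0.0550, 0.249 and 0.164 in the same Wald test. These refits have fewer libraries.

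Macrophages can also express Nos2. The summed neutrophil and macrophage markers, 11 of 14 listed, were 2639 and 4500 in the fed libraries and 1568 and 2071 in the fasted libraries without tetracycline, with 9 of the 11 lower in fasted crypts. Cxcr2, a neutrophil chemokine receptor, was 1 of the 2 above 0, at 1.13 in the authors' deposited table, and was not called. Elane, Ly6g and Mpo, the rest of that marker list, were not listed in that table. The neutrophil antimicrobials S100a8 and S100a9 were listed there at low means of 5.09 and 2.80, and Csf3r of the marker list at 24.5. Fasted library 1, with the most Nos2, had the lowest marker sum of that table, and the part of these cells in the Nos2 value was not tested.

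**Figure D1:**
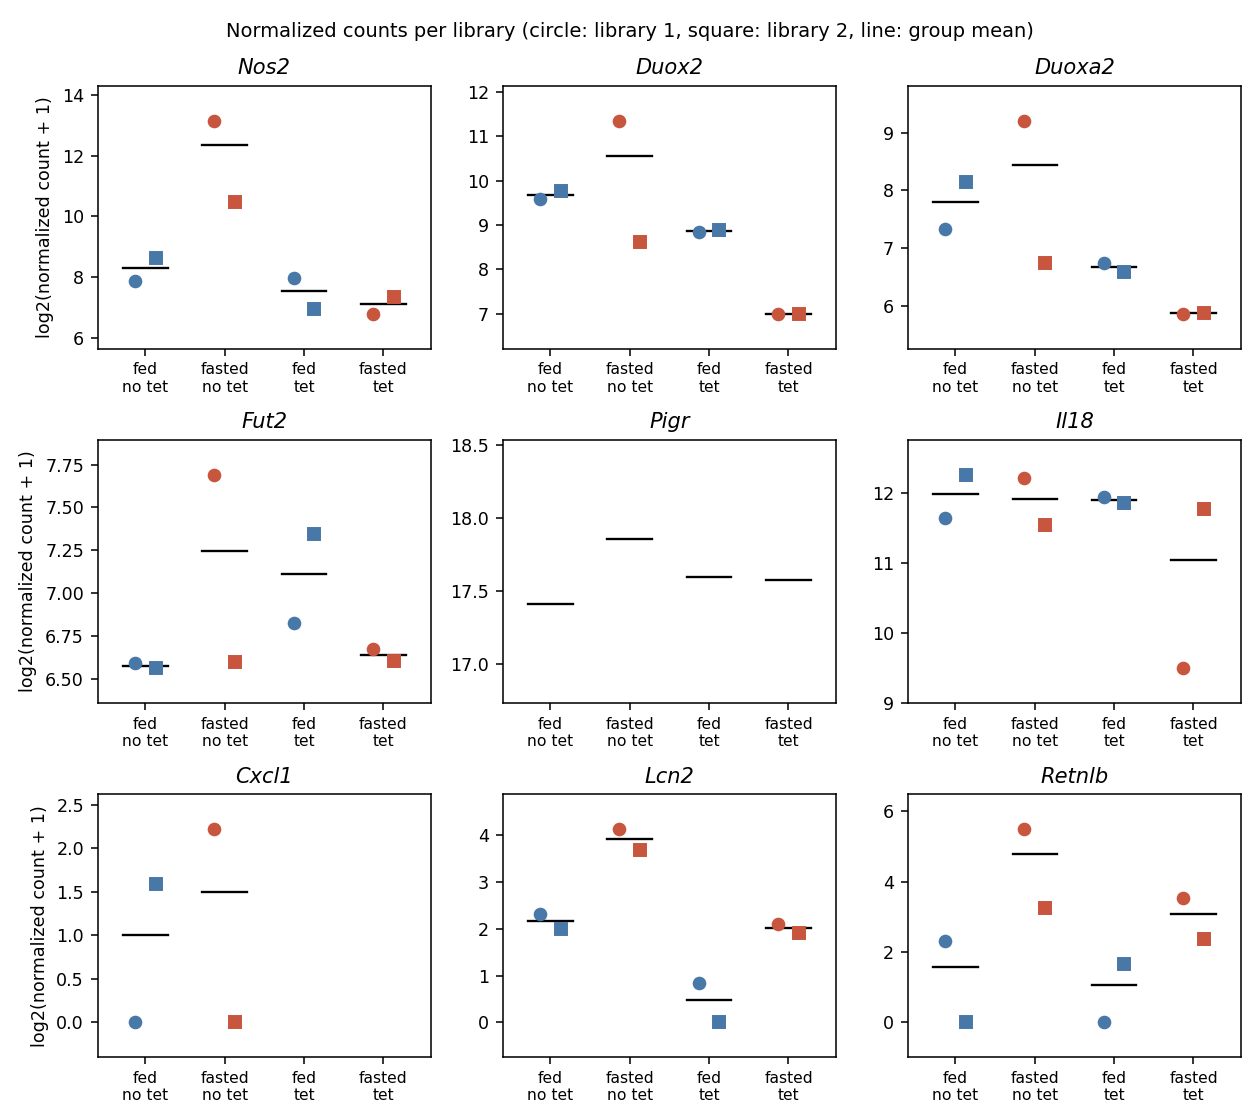
Normalized counts on a log2(value + 1) scale for the 9 genes in each of the 4 groups; circles are library 1, squares library 2, blue fed, red fasted, and the line is the group mean. Each panel has its own axis that need not start at 0; Nos2 reaches 9071 and 1415 in fasted crypts without tetracycline and stays between 109 and 249 with it. Pigr has group means only, and Cxcl1 was not listed with tetracycline.

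Duox2 had 761 and 862 normalized counts in the fed libraries and 2604 and 393 in the fasted libraries without tetracycline. The fasted libraries lay on either side of the fed ones, so the groups overlapped. The log2 change of 0.88 in the authors' deposited table (SE 1.17, DESeq2 Wald test, adjusted p 0.903) did not pass, and its direction rested on fasted library 1, without which it was -1.05.

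Duoxa2 followed the same order, with 160 and 283 in the fed libraries and 590 and 105 in the fasted libraries. Its log2 change was 0.65 in the authors' deposited table (SE 1.14, DESeq2 Wald test, adjusted p 0.939), and -1.07 without fasted library 1. Exons of Duoxa1, on the opposite strand, cover 42.8% of the exonic bases of Duoxa2, and the libraries did not keep the strand, so reads there could come from either gene. Duoxa1 itself had a mean of only 0.957.

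The 3 oxidant genes were among the genes that most set the 2 fasted libraries apart. Fasted library 1 exceeded fasted library 2 by 2.73 on the log2 scale for Duox2, 2.68 for Nos2 and 2.47 for Duoxa2, which ranked 12, 13 and 18 among the 9512 genes whose mean reached 50 and whose counts were recovered. Over those genes the ratio had a median of -0.08 and a standard deviation across genes of 0.60. Fut2 ranked 312 at 1.09 and Il18 ranked 768 at 0.67. The Duox2 and Nos2 excess was therefore far outside the range of most genes in the same libraries. The fed libraries differed less for these genes, with log2 ratios of -0.73 for Nos2, -0.18 for Duox2 and -0.82 for Duoxa2.

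**Figure D2:**
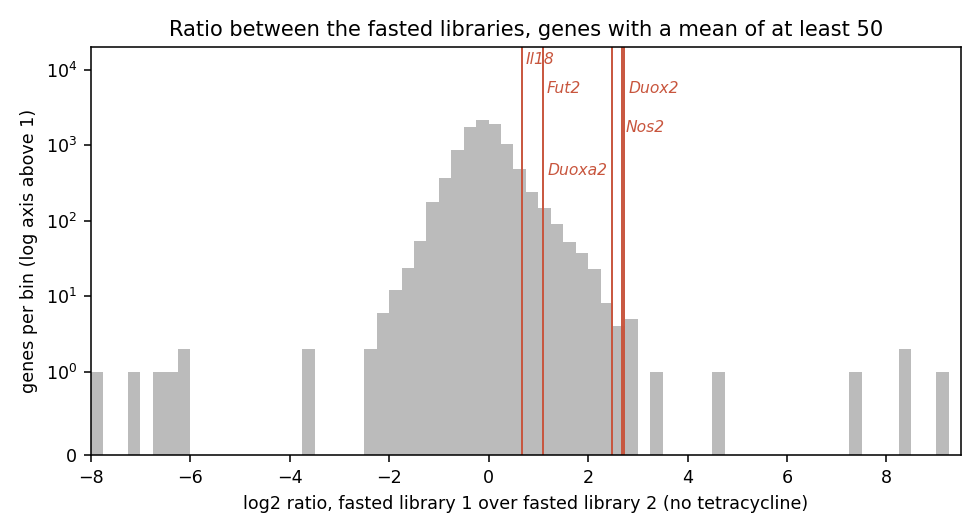
Histogram of the log2 ratio of fasted library 1 over fasted library 2 without tetracycline, for the 9512 genes whose mean reached 50, in bins of 0.25, on a count axis that is logarithmic above 1. Red lines mark members; Duox2 at 2.73, Nos2 at 2.68 and Duoxa2 at 2.47 lie in the sparse right tail, with Fut2 at 1.09 and Il18 at 0.67 nearer the centre.

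Fut2 (ENSMUSG00000055978.6, chr7:45648591-45666394), which adds the terminal fucose of H-type glycans, had 95.3 and 93.4 normalized counts in the fed libraries and 205 and 95.7 in the fasted libraries without tetracycline. Fasted library 2 stood at the fed level, 1.01 times the fed mean. The log2 change was 0.68 (SE 0.48, DESeq2 Wald test, adjusted p 0.701, in the authors' deposited table) and 0.02 without fasted library 1.

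Pigr (ENSMUSG00000026417.14, chr1:130826684-130852249), the receptor that carries IgA across the epithelium, was the most abundant member, with group means of 174454 in fed and 236826 in fasted crypts without tetracycline. The change in the authors' deposited table was 0.44 on the log2 scale (SE 0.25, DESeq2 Wald test, adjusted p 0.560), with a 95% interval of -0.05 to 0.94. Its counts are too large to be recovered per library.

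Il18 (ENSMUSG00000039217.14, chr9:50554700-50581841) had 3185 and 4889 normalized counts in the fed libraries and 4724 and 2963 in the fasted ones, which overlapped. The log2 change was -0.07 in the authors' deposited table (SE 0.33, DESeq2 Wald test, adjusted p 0.985), and its 95% interval was -0.72 to 0.58.

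Lcn2 (ENSMUSG00000026822.15, chr2:32384637-32387739), which binds the iron-carrying siderophores of bacteria, was read at 4 and 3 counts in the fed libraries and 18 and 11 in the fasted libraries without tetracycline. The fasted to fed ratio was 4.11, with an exact 95% interval of 1.76 to 11.1 that covers counting error only. It was not called, with a log2 change of 2.02 in the authors' deposited table (SE 1.25, DESeq2 Wald test, adjusted p 0.618), or 0.84 with a pseudocount of 10.

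Retnlb (ENSMUSG00000022650.8, chr16:48816856-48818892), a secreted goblet-cell protein that acts on bacteria, was read at 4 and 0 counts in the fed libraries and 48 and 8 in the fasted libraries. The ratio was 13.9, with an exact 95% counting interval of 5.13 to 52.7, and 83.7% of the fasted signal was in library 1. The log2 change of 3.73 in the authors' deposited table (SE 1.38, DESeq2 Wald test) had an unadjusted p of 0.00673 and an adjusted p of 0.158, so it was not called. The change was 2.11 without fasted library 1, and 1.60 with a pseudocount of 10.

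Cxcl1 (ENSMUSG00000029380.12, chr5:90891245-90893121) had 4 and 0 counts in the fasted and 0 and 2 in the fed libraries, too few for a fold change.

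Levels between genes can be set side by side only per length. Per kilobase of exon, the fed means without tetracycline ran from 43342 for Pigr and 3915 for Il18 through 139 for Duoxa2, 120 for Duox2, 71.2 for Nos2 and 17.4 for Fut2 to 2.85 for Retnlb, 1.33 for Lcn2 and 0.536 for Cxcl1. The single libraries of Duoxa2 (100 and 178) and Duox2 (112 and 127) overlapped on this scale. Those of Nos2 (53.5 and 88.8) lay below both, and those of Fut2 (17.5 and 17.2) lay below Nos2. In fasted crypts without tetracycline Nos2, at 1188 per kilobase, stood next after Il18 at 3728. Duox2 at 221 and Duoxa2 at 218 followed at nearly the same level, and Retnlb at 37.8 stood above Fut2 at 27.7. The single libraries of these genes overlapped: 2056 and 321 for Nos2 with 385 and 58.0 for Duox2, and 63.3 and 12.4 for Retnlb with 37.8 and 17.6 for Fut2.

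With tetracycline, fasted and fed crypts were compared in the same way. Of the 6 members with an adjusted p, 1 was called, Duox2, which was lower in fasted crypts, where 0.267% of 17993 tested genes were called lower and 0.600% called in either direction. Duox2 was also the 1 member at an unadjusted p under 0.05, against 5.34% of all tested genes, and at an adjusted p under 0.01, against 0.378%. All 6 changes were below 0, with a median of -0.64 against -0.02 over all tested genes. Both fasted libraries stood below both fed libraries for 4 of the 5 members with an adjusted p and recovered counts (Duox2, Duoxa2, Fut2 and Il18), as they did for 16.4% of all genes of that kind, and above both for 0 of the 5, against 16.2%.

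Duox2 had 457 and 470 normalized counts in the fed libraries and 127 and 127 in the fasted libraries with tetracycline. The groups did not overlap, and the libraries of a side differed little. Duox2 fell by 1.87 on the log2 scale in the authors' deposited table (SE 0.41, DESeq2 Wald test, adjusted p 0.00196), or 3.66-fold. The change stayed between -1.89 and -1.85 without any one library. The adjusted p of these refits, which have fewer libraries and hold the dispersion, was 0.0556 to 0.0792, so the call was lost in each. Marker sums of other cells also stood lower on average in fasted crypts with tetracycline. The 10 lymphocyte markers summed to 55086 and 14437 when fed and 18316 and 3056 when fasted, the 12 listed neutrophil and macrophage markers to 6845 and 3352 against 2843 and 937 without overlap, and the 8 stromal markers to 4360 and 1760 against 2399 and 842. The 4 proximal small intestine markers with recovered counts summed to 19749 and 24473 when fed and 7530 and 11663 when fasted, without overlap. The group means of all 8 proximal markers went the other way, summing to 189355 in fed and 236537 in fasted crypts. Of the 8 changes, 7 lay below 0. The part of other cells and of gut region in the Duox2 change was not tested.

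Duoxa2 had 106 and 94.9 normalized counts in the fed and 56.8 and 57.8 in the fasted libraries. The log2 change was -0.81 in the authors' deposited table (SE 0.54, unadjusted p 0.132 by the DESeq2 Wald test) and was not called. Duoxa2 stood at 44.8 and 45.7 normalized counts per 100 of Duox2 in the fasted libraries with tetracycline, and at 20.2 to 32.9 in the other 6 libraries.

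Nos2 did not show the fasted level seen without tetracycline. It had 249 and 122 normalized counts in the fed and 109 and 164 in the fasted libraries, which overlapped, with a log2 change of -0.45 in the authors' deposited table (SE 0.58, unadjusted p 0.440 by the DESeq2 Wald test).

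Il18 had 3945 and 3701 in the fed libraries and 719 and 3481 in the fasted libraries with tetracycline. Fasted library 1 was the low one, 4.84-fold below the other, and the ratio ranked 9558 of 9640 genes. These 2 libraries stood apart over all genes: their log2 ratio had a standard deviation across genes of 1.06, against 0.74 for the fed libraries of that table and 0.60 and 0.54 for the fasted and fed libraries without tetracycline. For Il18 the log2 change of -0.86 in the authors' deposited table (SE 0.69, unadjusted p 0.210 by the DESeq2 Wald test) became -0.14 without fasted library 1 and -2.41 without fasted library 2. In fasted library 1 the 10 lymphocyte markers summed to 18316, against 3056 in fasted library 2, and the part of other cells in the Il18 value was not tested.

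Fut2 had 113 and 162 when fed and 101 and 96.3 when fasted, a log2 change of -0.47 in the authors' deposited table (SE 0.51). The Fut2 change was -0.71 without fed library 1 and -0.19 without fed library 2. Pigr had group means of 197759 in fed and 195061 in fasted crypts, and its log2 change was -0.02 in the authors' deposited table, with a 95% interval of -0.94 to 0.90. Neither was called.

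The low genes stayed low with tetracycline. Lcn2 was read at 1 and 0 counts in the fed and 4 and 2 in the fasted libraries, a ratio of 6.79 with an exact 95% counting interval of 0.823 to 312. Retnlb was read at 0 and 2 counts in the fed and 13 and 3 in the fasted libraries, a ratio of 9.05 with an interval of 2.13 to 81.1. Both therefore had more fasted than fed counts in each table, and neither had an adjusted p with tetracycline.

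**Figure D3:**
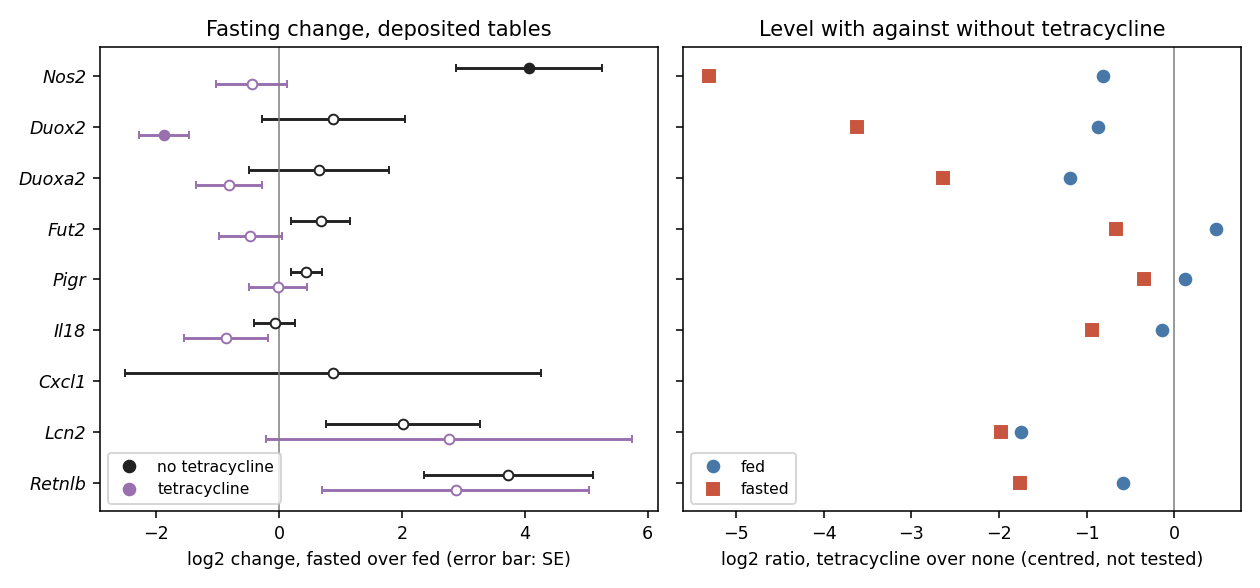
Left, log2 change of fasted over fed crypts with its SE from the deposited tables, black without and purple with tetracycline; filled points are called. Right, log2 ratio of the level with over without tetracycline in fed (blue) and fasted (red) crypts, centred on the median gene and not tested. Nos2 at 4.06 and Duox2 at -1.87 are the filled points, and Nos2 has the lowest fasted ratio at -5.32.

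Whether tetracycline altered the fasting change was tested gene by gene as the change with minus that without tetracycline, with a Wald test adjusted over 17571 genes, of which 4 (0.0228%) were called. No member was called, while 2 of the 6 tested members had an unadjusted p under 0.05, against 1.05% of all genes. All 6 differences were below 0, as were 49.97% of those of all tested genes. The Nos2 difference was -4.51 (SE 1.32, 95% interval -7.10 to -1.92, unadjusted p 0.000654, Wald test), ranking 15 by p among all genes, with an adjusted p of 0.766. The statistics of all genes had a robust SD of 0.71, estimated from these same statistics. After division by it Nos2 was called (adjusted p 0.00212, Wald test on the rescaled statistic), where 32 of the 17571 genes were called. Without fasted library 1 of mice without tetracycline, the Nos2 difference was -2.62 and was not called.

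The Duox2 difference was -2.76 (SE 1.24, 95% interval -5.18 to -0.33, unadjusted p 0.0259, Wald test) and did not pass the adjustment. Without fasted library 1 of the mice without tetracycline it was -0.82 (SE 1.49). The Duoxa2 difference was -1.46 (interval -3.93 to 1.01) and turned to 0.26 without that library. The intervals were -2.52 to 0.22 for Fut2, -1.50 to 0.58 for Pigr and -2.30 to 0.71 for Il18. The Fut2 difference of -1.15 was -0.49 without fasted library 1 of the mice without tetracycline. The Il18 difference of -0.79 was -0.06 without fasted library 1 and -2.34 without fasted library 2 of the mice given tetracycline. For Fut2 both fasted libraries lay above both fed ones without tetracycline and below both with it, though without tetracycline the lower fasted library, at 95.7, was barely above the higher fed one, at 95.3.

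Levels with and without tetracycline stand in separately scaled tables and were not tested. They are log2 ratios of group means plus 1, centred on the median gene, a shift of 0.06 in each feeding state. In fasted crypts all 8 members listed in both tables were below 0, the level of the median gene, and their median was -1.87. In fed crypts 6 of 8 were below it, with a median of -0.70. A ratio of -1 or less was found for 5 of 8 members in fasted and 2 of 8 in fed crypts, against 4.05% and 3.43% of 21925 genes. A ratio of 1 or more was found for 0 of 8 in either state, against 3.25% and 8.54%.

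Nos2 showed the widest gap. Its fasted mean was 5243 without and 137 with tetracycline, a centred log2 ratio of -5.32, and fasted library 2 alone, at 1415, was 10.4-fold above the fasted mean with tetracycline. Its fed mean was 314 without and 185 with tetracycline, a ratio of -0.82 that ranged from -1.40 to -0.42 without any one library, and the fed libraries overlapped. Duox2 was lower at -0.87 in fed and -3.62 in fasted crypts, and Duoxa2 at -1.19 and -2.64. Without fasted library 1 of the mice without tetracycline, the fasted ratio was -3.40 for Nos2, -1.66 for Duox2, -0.90 for Duoxa2 and -0.22 for Retnlb, so Duoxa2 and Retnlb no longer reached -1. In fed crypts Duoxa2 was at -0.76 without fed library 2, and Duox2 at -1.07 without fed library 1, of the mice without tetracycline. All 4 libraries with tetracycline were below those without tetracycline of the same feeding state for Duox2, Duoxa2 and Lcn2. That held for 3 of 7 members in fed and, with Nos2, 4 of 7 in fasted crypts, against 12.8% and 8.60% of all genes.

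Fut2 and Pigr were the members higher with tetracycline in fed crypts, at 0.47 and 0.12, and they were at -0.67 and -0.34 in fasted crypts. Il18 was at -0.14 and -0.93, Lcn2 at -1.75 and -1.98, and Retnlb at -0.58 and -1.76. Several of these signs rested on 1 library of the mice without tetracycline: the fed ratio turned to 0.88 for Retnlb without fed library 1 and to 0.16 for Il18 without fed library 2, and the fasted ratio of Fut2 to 0.01 without fasted library 1. The fed Retnlb ratio was also 0.04 without fed library 1 and -1.66 without fed library 2 of the mice given tetracycline. The Lcn2 and Retnlb ratios rest on means of at most 26.3 normalized counts. Without fasted library 1 of the mice given tetracycline, the fasted ratio of Il18 was -0.04, and without fasted library 2 it was -2.54. Lcn2 moved to -0.43 and -0.94 with a pseudocount of 10.

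The genes nearest in level over the 4 groups were ranked by Euclidean distance on centred log2 levels among the 13187 genes whose mean reached 50 in both tables. Reg3g, an antimicrobial lectin, was nearest to Nos2 at a distance of 0.91, with means of 8916 and 74603 in fed and fasted crypts without tetracycline and 2452 and 3046 with it, followed by the kinase Ptk6 at 1.74 and Alpk1, a sensor of bacterial sugars, at 2.18. Duoxa2 was nearest to Duox2 at 0.83, and Ceacam20 and Pdgfc were among the 3 nearest to each of them. The nearest genes to Lcn2 were Slc5a8, Prss30 and Plb1, to Retnlb Vnn1, Clu and Gm830, to Fut2 Gm48082, Ddx60 and 4833403J16Rik, to Il18 Ptges3-ps, Apol7a and Klf4, and to Pigr Sipa1l3, Mast4 and Vmn1r46. These distances rest on 4 group means each and carry no test.

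The partner genes of each member were taken from 8 lists. Among oxidant enzymes and their partners, 2 of 11 tested genes were called lower without tetracycline, against 1.22% of all tested genes, and 0 of 10 with it, against 0.267%, with medians of -0.59 and -1.03. Nox1, an oxidase of the colon and distal gut, fell from 71.5 and 75.3 normalized counts in fed to 1.83 and 9.68 in fasted libraries without tetracycline, a log2 change of -3.71 in the authors' deposited table (SE 0.79, DESeq2 Wald test, adjusted p 0.000393). With tetracycline it had 29.9 and 36.7 when fed and 3.29 and 1.38 when fasted and was not called (adjusted p 0.125, DESeq2 Wald test). Ncf4, a subunit of the phagocyte oxidase, fell by 1.68 in the authors' deposited table without tetracycline (SE 0.50, DESeq2 Wald test, adjusted p 0.0370). With tetracycline its change of -1.77 in the authors' deposited table (SE 0.89) was not called. In the authors' deposited tables without and with tetracycline, the most abundant genes of the list changed by -0.63 and -0.88 for Gpx2, a glutathione peroxidase, -0.28 and -0.29 for Cyba, a shared oxidase subunit, -0.10 and 0.36 for Noxo1, the organizer of Nox1, and -1.01 and -1.81 for Ncf1, the phagocyte organizer. These 4 were not called, and 9 of 11 and 9 of 10 tested genes of the list lay below 0. The neutrophil and macrophage markers also had medians below 0, at -1.09 and -1.33. The part of these cells in this list was not tested.

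Markers of gut region did not move one way. Of the colon markers tested without tetracycline, 3 were above and 2 below 0, with a median of 0.50. Aqp8, a colon water channel, fell by 3.76 and Slc37a2 by 1.98 in the authors' deposited table (DESeq2 Wald test, adjusted p 8.49e-13 and 0.000220). Muc3 at 1.13 and Best2 at 3.96 in the authors' deposited table were not called. Muc3 had a mean of 89676 without tetracycline in these crypts of the small intestine, so it is not particular to the colon. With tetracycline 3 were above and 3 below 0, with a median of -0.43. There Aqp8 fell by 2.77 and Best2, with means of 0.394 when fed and 59.3 when fasted, rose by 7.04 in the authors' deposited table (DESeq2 Wald test, adjusted p 0.00544 and 0.00802).

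Of the 8 distal small intestine markers, 3 were above and 5 below 0 without tetracycline, with a median of -0.28, and 6 were above and 2 below 0 with it, with a median of 0.60. Fabp6, which binds bile acids in the ileum, fell by 5.13 without tetracycline in the authors' deposited table (SE 0.34, DESeq2 Wald test, adjusted p 1.46e-48) and was the only one called in either table. The group means of all 8 summed to 50269 in fed and 32586 in fasted crypts without tetracycline, and to 28579 and 33478 with it. Per library only 6 of the 8 could be summed, leaving out Slc51a and Guca2a. Those sums were 25072 and 29754 when fed and 14287 and 5588 when fasted without tetracycline, and 20540 and 14211 when fed and 5635 and 15716 when fasted with it, so with tetracycline the 6 and the 8 differ in direction. Of the 8 proximal markers, 3 were above and 5 below 0 without tetracycline, with a median of -0.26, and 1 was above and 7 below 0 with it, with a median of -0.65. Fabp1, a fatty acid binding protein, rose by 1.08 and Slc40a1, the iron exporter, fell by 1.28 without tetracycline in the authors' deposited table (DESeq2 Wald test, adjusted p 0.00656 and 0.0113). With tetracycline Slc40a1 fell by 1.91 in the authors' deposited table (DESeq2 Wald test, adjusted p 0.0201), and Fabp1 at 0.98 was not called. The 4 with recovered counts summed to 10992 and 15569 when fed and 8908 and 10599 when fasted without tetracycline, while the group means of all 8 summed to 180907 in fed and 270148 in fasted crypts. With tetracycline the means of all 8 summed to 189355 and 236537, so here too the 4 and the 8 differ in direction. Fabp1, the most abundant of the 8 with a mean of 130957 with tetracycline, was the only one above 0 there. The part of gut region in the member values was not tested.

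Among fucosylation genes, 1 of 12 tested was called higher without tetracycline, against 1.06% of all tested genes, and 0 of 12 with it, against 0.333%, with medians of -0.06 and 0.25. Fut4, another fucosyltransferase, rose by 0.95 without tetracycline in the authors' deposited table (SE 0.26, DESeq2 Wald test, adjusted p 0.0192), from 2019 and 2072 in fed to 4378 and 3501 in fasted libraries. With tetracycline it changed by 1.01 in the authors' deposited table (SE 0.57) and was not called. Fut8, Gmds, Slc35c1 and Fuca1, which make, carry or remove fucose units, changed by between -0.27 and 0.35 in the authors' deposited tables and were not called.

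Among genes of IgA production and its transport, 1 of 7 tested was called lower without tetracycline, against 1.22% of all tested genes, and 0 of 7 with it, against 0.267%, with medians of -0.64 and -1.22. Jchain, which joins IgA into the form that Pigr binds, had 588 and 1252 when fed and 115 and 408 when fasted without tetracycline (log2 change -1.82, SE 0.52, adjusted p 0.0267, DESeq2 Wald test in the authors' deposited table). With tetracycline its change of -1.54 in the authors' deposited table (SE 0.83) was not called. Igha, the IgA heavy chain, changed by -1.39 in the authors' deposited table (SE 0.47, DESeq2 Wald test, adjusted p 0.0959). The lymphocyte markers moved with these, all 10 lying below 0 in each table. Of the 10, 4 were called lower without tetracycline, against 1.22% of all tested genes, and 0 with it, against 0.267%. The chemokines Ccl28 and Ccl25, which draw IgA cells, changed by 0.02 and -0.11 without tetracycline in the authors' deposited table and were not called. With tetracycline they changed by 0.13 (SE 0.50) and 0.70 (SE 0.45) in the authors' deposited table and were not called either.

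No gene was called among 8 tested epithelial chemokines in either table of DESeq2 tests, and 0 without and 1 with tetracycline had an unadjusted p under 0.05, with medians of 0.41 and 0.12. Over all tested genes 2.27% and 0.600% were called, and 10.8% and 5.34% had an unadjusted p under 0.05. The 4 of the largest mean were Ccl6, Cx3cl1, Ccl9 and Cxcl16. Ccl6 had group means of 9609 in fed and 13467 in fasted crypts without tetracycline. Cx3cl1 had 4357 and 5595 when fed and 10444 and 4729 when fasted, and Cxcl16 had 698 and 1081 against 1915 and 632, with fasted library 1 the higher. Ccl9 had 2278 and 2304 against 1982 and 2990, with fasted library 2 the higher.

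Of 14 genes of Il18 activation and its receptors, 1 was called without tetracycline, against 2.27% of all tested genes, and 0 with it, against 0.600%, with medians of 0.03 and -0.09. Casp4, an inflammatory caspase that senses bacterial lipopolysaccharide, rose by 1.22 in the authors' deposited table (SE 0.36, DESeq2 Wald test, adjusted p 0.0333), from 614 and 744 in fed to 2103 and 1071 in fasted libraries. With tetracycline its change of 0.75 in the authors' deposited table (SE 0.40) was not called. Casp1, which processes Il18, changed by -0.34 and -0.28, and the microbial sensor Nlrp6 by -0.09 and -0.12, in the authors' deposited tables, and neither was called.

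Of 14 genes of NF-kB, interleukin-17 and interleukin-22 signalling, 1 was called without tetracycline, against 2.27% of all tested genes, and 0 with it, against 0.600%, with medians of 0.33 and -0.11. Socs3, the feedback inhibitor that STAT3 induces, rose by 1.995 without tetracycline in the authors' deposited table (SE 0.38, DESeq2 Wald test, adjusted p 3.96e-05), with 394 and 526 when fed and 2502 and 1166 when fasted. With tetracycline it had 1057 and 600 when fed and 501 and 790 when fasted, and its log2 change was -0.36 in the authors' deposited table. The difference of -2.36 (SE 0.63, adjusted p 0.269, Wald test) did not pass, and, like that of Nos2, it was called after division by the robust SD (adjusted p 0.000219, Wald test). Stat3 itself had 5204 and 6139 when fed and 11232 and 5260 when fasted without tetracycline and was not called.

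Among the 3 tested iron-withholding and neutrophil genes, 0 were called in either table of DESeq2 tests, against 2.27% and 0.600% of all tested genes. At an unadjusted p under 0.05 there were 1 without and 0 with tetracycline, against 10.8% and 5.34%, and the medians were -0.25 and -0.27. Slpi, a secreted protease inhibitor, had 10.9 and 155 when fed and 15.6 and 15.1 when fasted without tetracycline, so fed library 2 alone was high. Its change of -2.43 in the authors' deposited table (SE 0.93, DESeq2 Wald test, adjusted p 0.187) was not called. With tetracycline its change was 0.46 in the authors' deposited table (SE 1.14). In the resistin and goblet list, 2 of 13 tested genes were called higher and 2 lower without tetracycline, against 1.06% and 1.22% of all tested genes, and 0 of 13 with it, with medians of -0.01 and 0.36. Ang4 and Itln1, secreted antimicrobials of Paneth and goblet cells, rose by 1.28 and 1.05 in the authors' deposited table (adjusted p 6.25e-05 and 0.00907, DESeq2 Wald test). Agr2, a goblet-cell folding enzyme, fell by 1.203, and Retnla, the paralog of Retnlb, fell by 2.95 in the same deposited table of the authors (adjusted p 0.00121 and 0.0317, DESeq2 Wald test). With tetracycline none of these 4 was called. Their changes in the authors' deposited table were 1.40 for Ang4 (SE 0.78) and 1.12 for Itln1 (SE 0.73). They were -2.17 for Retnla (SE 1.05) and -0.33 for Agr2 (SE 0.43). Muc2, Fcgbp and Zg16, the main mucus proteins, were not called.

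**Figure D4:**
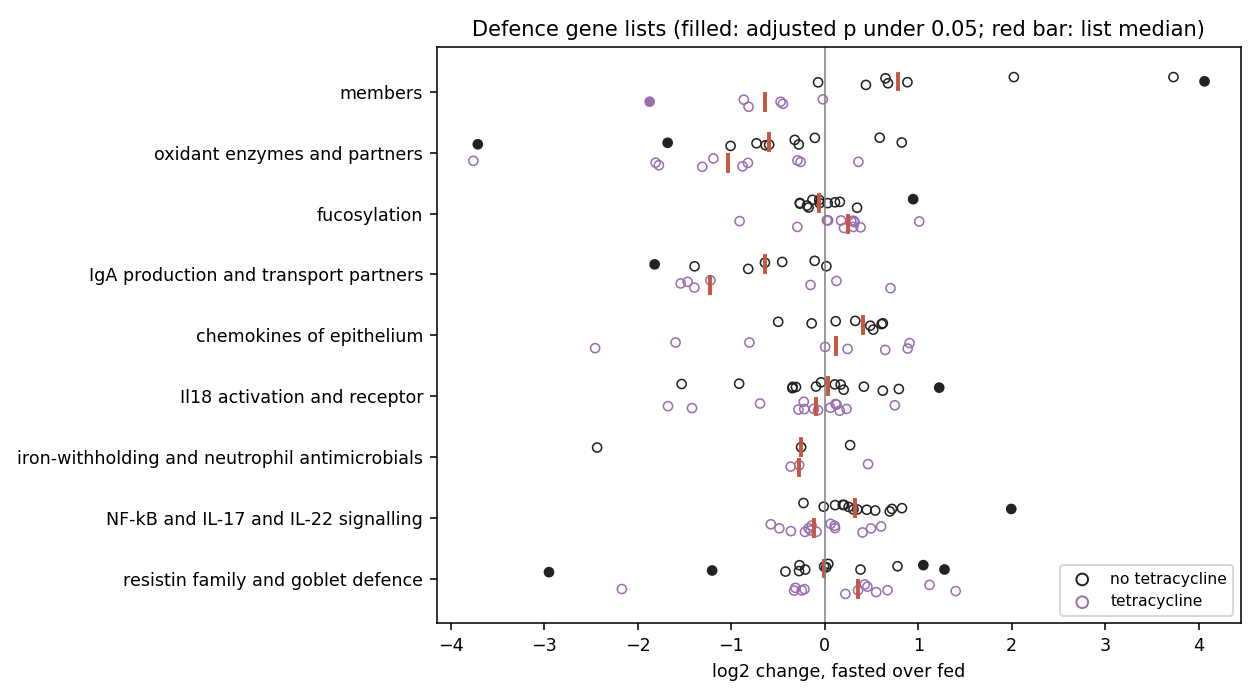
Log2 change of fasted over fed crypts for each tested gene of the members and 8 partner lists, black without and purple with tetracycline, filled where the adjusted p was under 0.05; red bars are list medians. The member medians are 0.78 without and -0.64 with tetracycline, and Nox1 at -3.71 is the lowest black filled point.

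**Figure D5:**
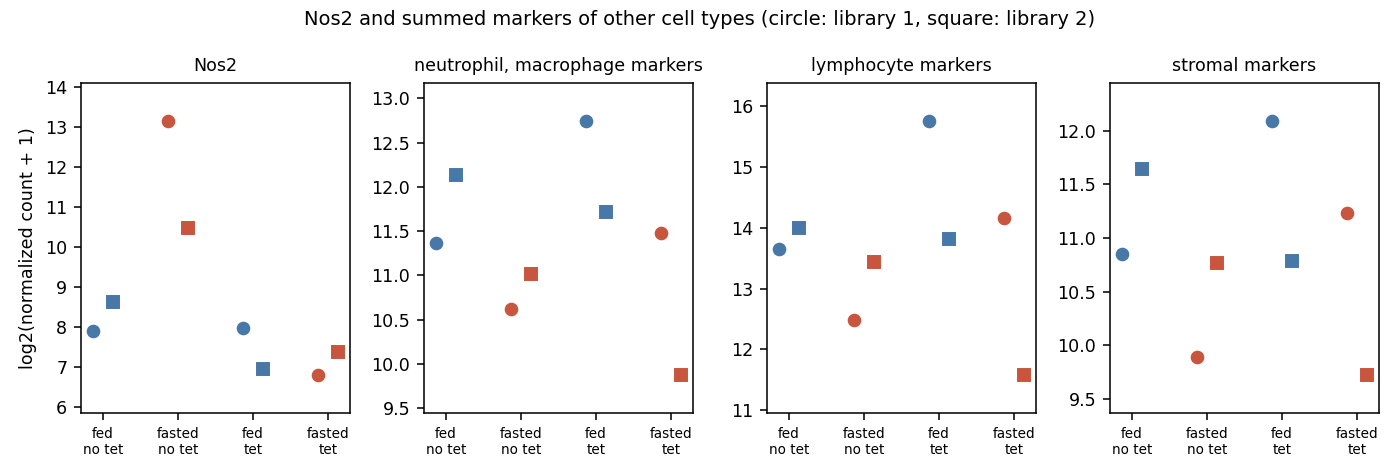
Nos2 beside the summed markers of neutrophils and macrophages, lymphocytes and stroma, as log2(normalized count + 1) per library; circles are library 1 and squares library 2. The fasted library 1 without tetracycline has the highest Nos2 (9071) and the lowest sums of that table in each marker panel (1568, 5720 and 949). Between the libraries of a group, Nos2 and the sums go the same way in both fed groups and opposite ways in both fasted groups.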

How the data were processed

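Crypts were released by shaking with EDTA and treated with trypsin, and the library kit was non-directional, per the labels' protocols. The submitters' processing notes name Salmon, DESeq2 and mm10, without versions or roles. The 2 deposited tables hold 1 fasting comparison each, and per the file headers their columns are those of DESeq2. The authors' mean is a signal, the average of counts divided by size factors. The authors' change and SE are on the log2 scale, the authors' statistic is a score equal to their quotient, and the authors' p-values are given raw and adjusted, the latter missing for rows of low mean. There were 0 further per-sample columns. The text names all 9 members, and from each partner list the called genes and up to 4 of the largest mean. The members and lists were chosen with earlier results of these data known.

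Size factors divide whole counts, so each mean is a sum of whole counts times 4 fixed steps. The lowest means gave the steps, the sign of the change gave the side, and 99.99% of 21702 rows without and 99.89% of 22181 rows with tetracycline decoded. In rows with 1 solution, a negative binomial fit to the decoded counts met the deposited change to a median gap of 8.41e-07 and 1.47e-06 on the log2 scale. For larger means that change also bounded the search, so this is a partial check, and among several solutions the one that met the change was taken. The recovery and the Wald test were tested on simulated data. Other steps used Python 3.11.15, numpy 2.4.6, pandas 2.3.3 and scipy 1.17.1, with a pseudocount of 1, and intervals for count ratios are exact and cover counting error only. Coordinates and promoter windows are RefSeq's on GRCm38.p6, and exon overlaps are from GENCODE M21, whose identifiers matched 99.3% of those deposited when versions were ignored.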

Additional observations from a re-analysis of the deposited data

How the results depend on the processing

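At an adjusted p under 0.01, 0 members were called without tetracycline (Nos2 at 0.0336), against 1.36% of all tested genes, and 1 stayed called with it, against 0.378%. The counts were the same when p was adjusted over every row or over means of at least 50, and when changes were centred. Without each library in turn, with the dispersion held and 14241 or 14042 genes with recovered counts refitted, the members called numbered 0 to 0 in either table, where 106 to 203 and 25 to 54 of all genes were called. These refits were chosen after seeing the data, Pigr is not in them, and they have fewer libraries by construction. The difference test called 0 members in each such refit and 1, Nos2, after division by the robust SD, where 32 of all genes were called. With 1 library left out, the log2 change ranged across 0 for Duox2 (-1.05 to 1.68), Duoxa2 (-1.07 to 1.41) and Il18 (-0.45 to 0.27) without tetracycline, for Nos2 with tetracycline (-0.87 to 0.16) and for the Duoxa2 difference (-2.23 to 0.26), and none of these had been called. Members lower with tetracycline numbered 6 to 8 under every centring and pseudocount, and 5 to 7 without a library, again without Pigr. No paired analysis was possible because the labels give no replicate numbers. Depth limits Lcn2, Retnlb and Cxcl1, which had few counts.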

Other observations

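Other genes that set the fasted libraries without tetracycline apart as Duox2 and Nos2 did, named after their values were seen, included Saa1, a secreted acute-phase protein that epithelium makes in response to bacteria, with 788 normalized counts in fasted library 1, 33.3 in library 2, and 4.96 and 1.005 in the fed libraries. Mbl2, a lectin of the complement system, had 1326 and 225 in the fasted and 16.9 and 21.1 in the fed libraries. Ptk6, an epithelial kinase, had 6659 and 1502 in the fasted and 550 and 966 in the fed libraries. Fasted library 2 stood above both fed libraries for these 3 genes, as it did for Nos2. Hspa12a, with 1222 and 170 in the fasted and 399 and 416 in the fed libraries, and Pdgfc, with 502 and 94.6 against 162 and 241, had the order of Duox2 and Duoxa2, with fasted library 2 below both fed libraries.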
